A study of Mus musculus with 2 samples.

Results

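The 10 genes described here are immediate-early genes that encode no subunit of the AP-1 transcription factor: Egr1, Egr2, Nr4a1, Ier2, Ier3, Zfp36, Btg2, Dusp1, Klf2 and Klf6. They were chosen by name, from 32285 genes counted, with earlier results of these data known. RNA of single LSK cells, the lineage-negative, Sca1-positive and cKit-high cells of mouse bone marrow that hold the blood stem cells and multipotent progenitors, was counted in 2 droplet libraries. The groups were LSK cells of wild-type (WT) mice, which the design text calls young, and of IκB– mice, which the deposited cell table names IkBKO. Neither the altered IκB genes nor how many mice gave each pool is stated, and no age is given beyond that word. In each library both genotypes were sorted and tagged with antibody barcodes separately, then run together.

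Immediate-early genes are transcribed within minutes of a stimulus, without new protein synthesis, because the factors that switch them on already lie in the cell. In many of them the serum response factor and its ERK-activated partners, CREB, or NF-κB are known to bind close to the start of the gene. Their RNAs are short-lived, and several of the encoded proteins end the response. They are also known to respond to tissue dissociation and cell sorting.

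Promoter sequence was read from RefSeq (build GRCm38.p6, the coordinates of mm10) for the 8 members its table held, which left Egr1 and Ier2 without a window. The 250 bases before each start were searched on both strands for the cyclic AMP response element (CRE, TGACGTCA), the AP-1 site TGANTCA, the EGR site GCGNGGGCG, the CArG box of serum response factor, and the kappa B site of NF-κB. The windows below were chosen because they carry the sites by which this class of genes is best known, and because Ier3 is the member whose level differed least between the genotypes. Capitals mark the matches, which are the CRE in Dusp1, the CRE and then the EGR site in Btg2, the EGR site and then the CArG box in Zfp36, and the kappa B site in Ier3. The windows lie at chr17:26508473-26508722 (minus strand) for Dusp1, chr1:134079156-134079405 (minus strand) for Btg2, chr7:28379229-28379478 (minus strand) for Zfp36 and chr17:35821463-35821712 (plus strand) for Ier3. Each is written 5′ to 3′ on the strand of the gene and ends at the base before the RefSeq start. RefSeq and GENCODE starts differ, and the windows of Dusp1 and Zfp36 lie inside the GENCODE gene.
Dusp1: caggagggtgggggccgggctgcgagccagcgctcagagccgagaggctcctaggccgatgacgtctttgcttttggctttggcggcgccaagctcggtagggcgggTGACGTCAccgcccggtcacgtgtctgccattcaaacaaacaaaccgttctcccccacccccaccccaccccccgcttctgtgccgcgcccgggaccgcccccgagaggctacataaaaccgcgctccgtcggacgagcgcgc
Btg2: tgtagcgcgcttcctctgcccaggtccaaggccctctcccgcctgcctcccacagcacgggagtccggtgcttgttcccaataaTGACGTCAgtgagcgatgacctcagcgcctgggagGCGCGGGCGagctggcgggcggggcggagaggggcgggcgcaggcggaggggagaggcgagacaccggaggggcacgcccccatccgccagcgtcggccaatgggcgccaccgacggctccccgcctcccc
Zfp36: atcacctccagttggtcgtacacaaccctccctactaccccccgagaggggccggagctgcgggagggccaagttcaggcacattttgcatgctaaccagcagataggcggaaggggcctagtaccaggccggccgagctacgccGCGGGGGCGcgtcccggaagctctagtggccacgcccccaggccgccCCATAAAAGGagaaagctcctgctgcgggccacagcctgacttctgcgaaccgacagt
Ier3: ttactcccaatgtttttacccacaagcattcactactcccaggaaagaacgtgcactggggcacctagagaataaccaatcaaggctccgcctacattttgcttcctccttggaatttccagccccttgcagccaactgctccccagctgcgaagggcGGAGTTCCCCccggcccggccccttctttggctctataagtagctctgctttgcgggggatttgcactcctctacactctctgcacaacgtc

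The CRE matched 2 of the 8 members and 1.77% of the 27025 genes with a window. It began 143 bases upstream of the start in Dusp1 and 166 bases upstream in Btg2. The CArG box matched Zfp36, 58 bases upstream, and Egr2, against 1.62% of genes. The EGR site matched Nr4a1, Zfp36, Btg2 and Klf2, against 5.33% of genes. The kappa B site matched Ier3, 92 bases upstream, and 1 of the 5 windows of Egr2, against 8.23% of genes. The AP-1 site matched no member and 7.82% of genes, and Klf6 held none of the 5 motifs. A match describes these letters and no binding.

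The libraries held 3721 WT and 3962 IkBKO cells (replicate 1) and 4963 and 5383 (replicate 2), with 42165571 to 62834572 UMIs (distinct RNA molecules) in each of the 4 pools of genotype and library. IkBKO cells held more UMIs, with medians of 13709 and 9641 a cell against 9963 and 6983 in WT. Kit stood at 117.8 to 271.9 UMIs per 1000000 UMIs (CPM) and Ly6a, which encodes Sca-1, at 52.4 to 116.9 CPM in the pools. As a check of the labels, Nfkbie was at 9.11 and 12.1 CPM in the WT pools, with 2.04 and 1.98 CPM in the IkBKO pools of replicates 1 and 2. Nfkbib was at 19.2 and 16.1 CPM against 6.64 and 7.93 CPM, and Nfkbia at 47.7 and 76.0 CPM against 42.6 and 59.7 CPM. The kit reads 3′ ends, so a deletion elsewhere in a gene would go unseen. The libraries shared 39 barcode sequences among passing cells. The p-values rest on the spread of these 4 pools alone, and the genotype and the handling of its cells before pooling cannot be told apart.

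The EGR genes encode zinc-finger transcription factors switched on by growth factors and antigen receptors. Egr1 (ENSMUSG00000038418, mm10 chromosome 18, 34859823 to 34864984) was at 57.0 and 79.4 CPM in the WT pools of replicates 1 and 2 and at 19.9 and 21.8 CPM in the IkBKO pools. Both WT pools stood above both IkBKO pools. Over all LSK cells Egr1 fell by 1.60 ± 0.12 on the log2 scale (SE, 2 pools a genotype, edgeR adjusted p = 0.00282). Egr2 (ENSMUSG00000037868, chromosome 10, 67535475 to 67542188) was close to the limit of detection, with 10 and 18 UMIs in WT and 3 and 13 UMIs in IkBKO cells. Its CPM in IkBKO was 0.209 times that in WT in replicate 1 (95% exact interval 0.0369 to 0.810) and 0.497 times in replicate 2 (0.224 to 1.07), intervals that cover counting error only. The fitted difference was −1.33 ± 0.52 and was not called (adjusted p = 0.139).

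Nr4a1, an orphan nuclear receptor known for marking recent receptor signalling in lymphocytes, had the lowest log2 fold change of the members. Nr4a1 (ENSMUSG00000023034, chromosome 15, 101254269 to 101274795) was at 5.66 and 5.36 CPM in the WT pools, with 1.46 and 1.44 CPM in the IkBKO pools. The pools of a genotype lay close together and the genotypes far apart. It fell by 1.83 ± 0.19 (adjusted p = 0.00566).

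Zfp36 and Btg2 act on RNA. Zfp36 encodes tristetraprolin, which binds AU-rich elements and speeds the decay of the RNAs that carry them, and Btg2 encodes an antiproliferative protein that recruits the deadenylase CCR4-NOT. Zfp36 (ENSMUSG00000044786, chromosome 7, 28376784 to 28380253) was at 47.5 and 67.9 CPM in the WT pools, with 17.4 and 21.7 CPM in the IkBKO pools, and Btg2 (ENSMUSG00000020423, chromosome 1, 134075170 to 134079120) was at 47.8 and 75.9 CPM against 18.2 and 33.6 CPM. In both genes the lower WT pool stood above the higher IkBKO pool. Zfp36 fell by 1.46 ± 0.10 (adjusted p = 0.00192) and Btg2 by 1.19 ± 0.08 (adjusted p = 0.00194).

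Dusp1 encodes a nuclear phosphatase that switches off p38, JNK and ERK kinases. Dusp1 (ENSMUSG00000024190, chromosome 17, 26505590 to 26562128) was at 22.6 and 26.5 CPM in the WT pools, with 9.01 and 12.4 CPM in the IkBKO pools, with no overlap. It fell by 1.12 ± 0.09 (adjusted p = 0.00272).

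Klf2 and Klf6 encode Krüppel-like factors, of which Klf2 is known for lymphocyte quiescence and endothelial shear responses. Klf2 (ENSMUSG00000055148, chromosome 8, 72319033 to 72321656) was at 10.2 and 12.6 CPM in the WT pools, with 3.58 and 4.39 CPM in the IkBKO pools. Klf6 (ENSMUSG00000000078, chromosome 13, 5861482 to 5870394) was at 23.5 and 41.3 CPM against 12.8 and 21.9 CPM. Neither gene overlapped between genotypes, though the lower WT pool of Klf6, replicate 1, came close to the higher IkBKO pool, replicate 2. Klf2 fell by 1.43 ± 0.13 (adjusted p = 0.00395) and Klf6 by 0.81 ± 0.08 (adjusted p = 0.00521).

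The Ier genes differed least. Ier2 (ENSMUSG00000053560, chromosome 8, 84661331 to 84662852), whose product is a nuclear regulator of transcription, was at 92.4 and 117.3 CPM in the WT pools, with 68.0 and 63.0 CPM in the IkBKO pools. The pools did not overlap, and the difference of −0.58 ± 0.14 was not called (adjusted p = 0.0594). Ier3 (ENSMUSG00000003541, chromosome 17, 35821684 to 35822923), a membrane-associated survival factor and a known NF-κB target gene, was at 36.0 and 50.9 CPM in the WT pools, with 26.7 and 45.4 CPM in the IkBKO pools. Its pools overlapped across genotypes, and replicate 2 was the higher library in both. The difference of −0.20 ± 0.08 was not called (adjusted p = 0.154). Within replicates 1 and 2 the log2 ratio of CPM was −0.43 and −0.17 for Ier3, against −0.44 to −2.26 over the other 9 members and both libraries.

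**Figure D1:**
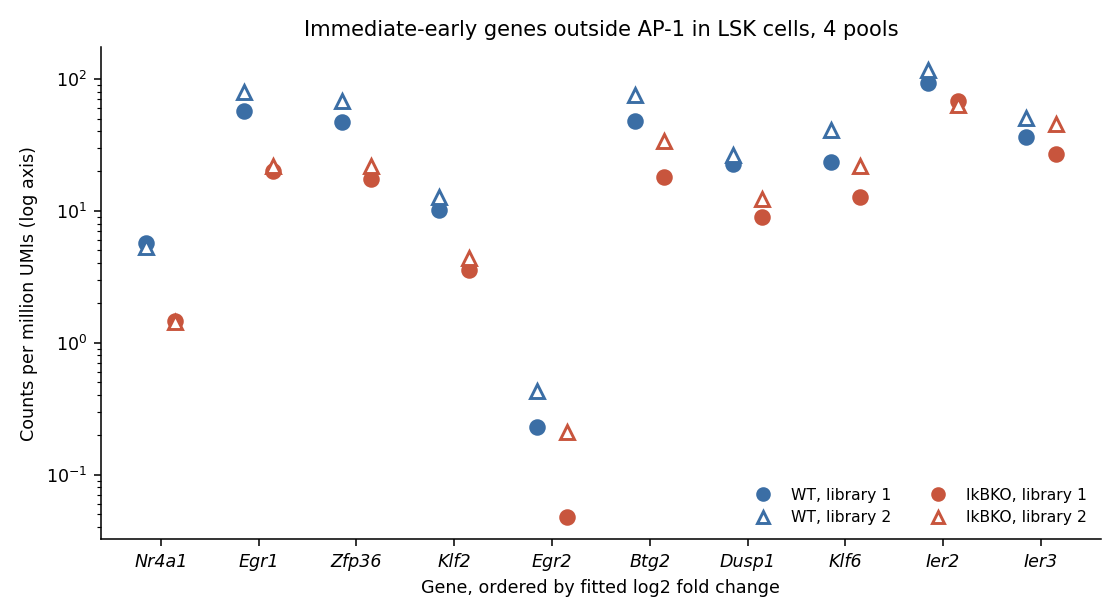
Level in CPM (log axis) of the 10 genes in the 4 pools of LSK cells, ordered by fitted log2 fold change. Circles are library 1 and triangles library 2, WT in blue and IkBKO in red. Only Ier3 has an IkBKO point, 45.4 CPM, above a WT point, 36.0 CPM. The share of all genes without such overlap was not counted.

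Over all LSK cells 7 of the 10 members were called lower, against 6.19% of the 14742 genes tested. None was called higher, against 7.13%. All 10 were lower in IkBKO cells of both libraries, against 50.0% of genes. How many of all genes had pools without overlap between genotypes was not counted, so the lack of overlap has no background share. The median log2 fold change was −1.26 over the members and −0.01 over all genes tested. Without the replicate block 0 members were called by edgeR (8 at an unadjusted p under 0.05), and so were 0 of all genes, against 1964 with it. With 1 pool dropped, and the block with it, 0 were called without WT replicate 2 (6 at an unadjusted p under 0.05), 1 without IkBKO replicate 1, 2 without WT replicate 1 and 3 without IkBKO replicate 2. Of all genes 25, 66, 96 and 136 were called in the same order, so calls were lost over the whole table.

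CPM sets a gene against all RNA of a pool, and IkBKO cells carried more RNA, so UMIs per cell were also read. Egr1 gave 668.9 and 674.8 UMIs per 1000 WT cells and 316.0 and 248.4 per 1000 IkBKO cells, so the difference stood on this scale too. The per-cell ratio of IkBKO to WT was 0.472 and 0.368 for Egr1, 0.350 and 0.359 for Nr4a1, and 0.735 and 0.710 for Klf6. Ier2 was at 0.995 and 0.719 times the WT number, and Ier3 at 1.00 and 1.20 times. Per cell, therefore, Ier3 was not lower in IkBKO in either library, and Ier2 was nearly equal in replicate 1.

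The genotypes also held different mixtures of cells. Dendritic cell and monocyte markers summed to 583.8 and 391.1 CPM in WT against 1975 and 1924 CPM in IkBKO pools, mature neutrophil markers to 1344 and 1160 against 166.5 and 200.8 CPM, and stem cell markers to 423 and 832.2 against 166.2 and 467.3 CPM. Cells with at least 20 UMIs of the MHC class II genes Cd74, H2-Aa, H2-Ab1 and H2-Eb1 numbered 58 and 55 in WT and 394 and 483 in IkBKO. They held 17.8% and 42.8% of the IkBKO UMIs of Klf2, against 16.6% and 14.3% of those in WT. Of the Klf6 UMIs they held 21.2% and 20.5% in IkBKO and 5.27% and 2.64% in WT, and of the Btg2 UMIs 14.8% and 20.7% against 4.55% and 4.06%. Without these and other cells over the marker rules for neutrophils, B cells and T or NK cells (Nkg7 not used), 8 members were called lower. Of all genes 2460 were called without these cells, against 1964 with them. Klf2 was then at −1.69, Btg2 at −1.32, Zfp36 at −1.61, Ier2 at −0.57 (adjusted p = 0.0445) and Ier3 at −0.17. The part of the remaining mixture, and of free RNA, in these differences was not tested.

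To read the genes within more alike cells, the contrast was repeated in cells gated on a lineage gene: Mecom (at least 1 UMI, a stem cell regulator), Dntt (at least 3, the lymphoid terminal transferase), Mpo (at least 20, the myeloid peroxidase), Pf4 (at least 3, a platelet factor) and Car1 (at least 5, an erythroid carbonic anhydrase). Lymphoid-primed markers summed to 2241 to 2471 CPM in the Dntt gate and erythroid markers to 2813 to 3254 CPM in the Car1 gate. The marker sum of each lineage includes the gate gene itself. The gating alone raises such a sum, so it cannot show what the gated cells are. In the Mecom gate stem cell markers summed to 760.3 and 1163 CPM in WT against 485.3 and 802.2 CPM in IkBKO cells, and myeloid markers to 1466 and 478.1 CPM in WT against 3597 and 1566 CPM in IkBKO cells, so the gate was not of stem cells alone. A cell could lie in more than 1 gate. Egr2 had at most 10 UMIs in any pool of a gate and was tested in none.

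In the Mecom gate (1106 and 1761 WT, 738 and 1714 IkBKO cells) 8 of the 9 members tested were called lower, against 4.37% of 12975 genes, and none higher, against 6.2%. Of these 9, 8 were lower in both libraries, against 40.1% of genes. Egr1 was at 74.6 and 82.3 CPM in the WT pools, with 23.1 and 23.2 CPM in the IkBKO pools, far apart in both libraries, and fell by 1.73 ± 0.09 (adjusted p = 8.94e-07). Nr4a1 fell by 2.35 ± 0.26, from 7.38 and 6.56 CPM to 1.58 and 1.14 CPM. Ier2, whose difference over all cells was not called, fell by 0.63 ± 0.09 here (adjusted p = 0.00130). Ier3 was at 46.8 and 53.6 CPM in the WT pools, with 46.7 and 54.8 CPM in the IkBKO pools, nearly equal within each library (0.05 ± 0.08, adjusted p = 0.740). With no replicate block 3 of the members were called, and with 1 pool dropped 3 (without IkBKO replicate 1 or WT replicate 2), 4 (without IkBKO replicate 2) or 5 (without WT replicate 1). Of all genes 1371 were called with the block, 53 without it and 64 to 132 with 1 pool dropped.

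In the Dntt gate (748 and 962 WT, 264 and 527 IkBKO cells) 8 of 9 were called lower, against 5.95% of 11851 genes, and none higher, against 6.81%. All 9 were lower in both libraries, against 42.9% of genes. Btg2, at 61.4 and 117.0 CPM in the WT pools, with 28.2 and 42.7 CPM in the IkBKO pools, fell by 1.24 ± 0.11 (adjusted p = 1.33e-19). Over 11 alternative settings its log2 fold change lay between −1.57 and −0.75, and it was called in 7 of them. Klf2 fell by 1.57 ± 0.23, from 11.2 and 19.8 CPM to 5.63 and 4.76 CPM. Both IkBKO pools of each gene lay under both WT pools. Ier3 was at 32.0 and 38.0 CPM against 22.0 and 31.3 CPM, without overlap and without a call (−0.30 ± 0.13, adjusted p = 0.132). With DESeq2 the count was 4, with no replicate block 4, and without a pool 0 (IkBKO replicate 2), 1 (IkBKO replicate 1), 2 (WT replicate 2) or 5 (WT replicate 1). Of all genes 1512 were called in edgeR with the block, 177 with DESeq2, 125 with no block and 41 to 144 without a pool. Other markers moved with the genotype inside this gate, and their part was not tested. Dendritic cell and monocyte markers summed to 302.5 and 340.6 CPM in WT against 1256 and 807.5 CPM in IkBKO cells, myeloid markers to 722.9 and 461.4 against 1193 and 1120 CPM, and stem cell markers to 237.3 and 399.5 against 113.4 and 160.1 CPM.

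In the Mpo gate (339 and 40 WT, 1473 and 510 IkBKO cells) 1 of 9 was called lower, against 0.138% of 11607 genes, and none higher, against 0.164%. Of the 9, 7 were lower in both libraries, against 25.9% of genes. The exceptions were Dusp1 and Ier3, both higher in IkBKO in replicate 2. Dusp1 was at 13.2 and 7.89 CPM in WT against 5.80 and 9.49 CPM in IkBKO, and Ier3 at 17.8 and 15.8 against 16.0 and 27.35 CPM. Nr4a1 was nearly level in replicate 2, at 1.13 against 1.02 CPM, with 1 UMI in the WT pool. The call was Egr1, at 20.5 and 27.0 CPM in the WT pools, with 4.0 and 7.91 CPM in the IkBKO pools, which fell by 2.10 ± 0.26 (adjusted p = 0.0138). Zfp36 was at 28.3 and 31.5 CPM against 13.5 and 15.4 CPM without a call (−1.03 ± 0.19, adjusted p = 0.114). The 6 mature neutrophil markers summed to 9003 CPM in the WT pool of replicate 2, which rests on 40 cells, against 815 CPM in the other WT pool and 259 and 530 CPM in IkBKO pools. Without cells over the other-lineage rules 3 members were called, Egr1 (−2.18), Zfp36 (−0.97, adjusted p = 0.00153) and Btg2 (−0.83, adjusted p = 0.0147). With 1 pool left out the number of calls changed, and without either WT pool none was left. The share of all genes called in these alternatives is not given, so their counts have no background. Over 11 alternative settings the log2 fold change of Egr1 lay between −2.40 and −1.57.

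In the Pf4 gate (113 and 196 WT, 264 and 586 IkBKO cells) 4 of 9 were called lower, against 0.73% of 10415 genes, and none higher, against 0.73%. Of the 9, 7 were lower in both libraries, against 31.5% of genes. Zfp36, at 30.0 and 45.8 CPM in the WT pools, with 10.2 and 17.6 CPM in the IkBKO pools, fell by 1.40 ± 0.21 (adjusted p = 4.50e-05). Ier2 fell by 0.72 ± 0.14, Btg2 by 0.86 ± 0.18 and Dusp1 by 0.93 ± 0.25. Egr1 was at 33.5 and 72.3 CPM in the WT pools, with 34.1 and 32.0 CPM in the IkBKO pools, so that the genotypes were level in replicate 1 and apart in replicate 2 (−0.70 ± 0.25, adjusted p = 0.329). DESeq2 and cells in exactly 1 gate each gave 0 calls (3 and 4 at an unadjusted p under 0.05), as did the fits without any 1 pool. Of all genes 152 were called in the first fit, 24 with DESeq2, 70 in cells of exactly 1 gate and 7 to 20 without a pool.

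In the Car1 gate (52 and 9 WT, 253 and 224 IkBKO cells) 7 members could be tested, since Egr2, Nr4a1 and Klf2 had at most 3 UMIs in any pool. The call was 1 lower, against 1.67% of 9345 genes, and none higher, against 1.79%. Of the 7, 4 were lower in both libraries, against 27.6% of genes. Btg2 was at 51.2 and 15.4 CPM in the WT pools, with 17.6 and 7.59 CPM in the IkBKO pools (−1.43 ± 0.34, adjusted p = 0.00252). The WT pool of replicate 2 gave 3 of those UMIs. With 1 pool left out the number of calls changed, and without either WT pool none was left. How many of all genes were called in those fits is not given. Over 11 alternative settings the log2 fold change of Btg2 lay between −2.565 and −0.19. Egr1 was at 97.3 and 51.2 CPM in the WT pools, with 100.6 and 33.1 CPM in the IkBKO pools, level in replicate 1 (−0.03 ± 0.23, adjusted p = 0.985). Ier3 was higher in both IkBKO pools, 15.9 and 13.9 CPM against 10.2 and 10.2 CPM, without a call (0.63 ± 0.49, adjusted p = 0.684). Its WT values rest on 10 and 2 UMIs.

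**Figure D2:**
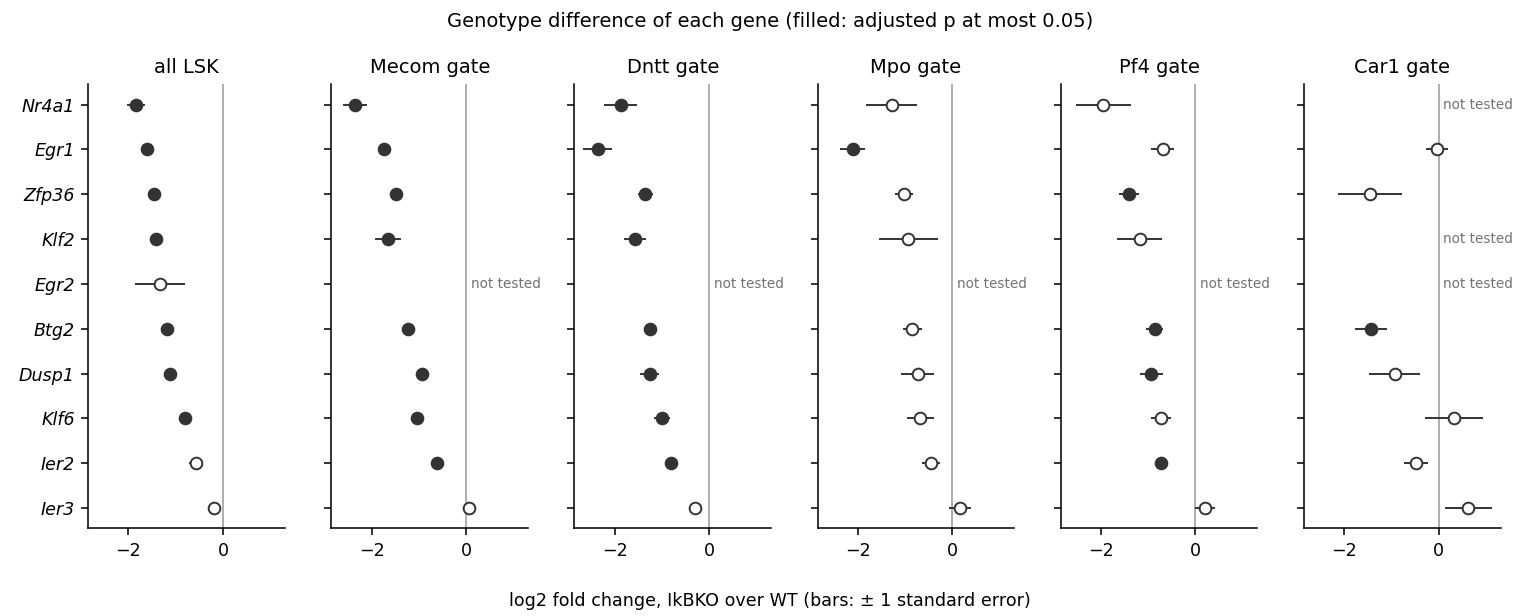
Log2 fold change of IkBKO over WT, with bars of 1 standard error, for each member over all LSK cells and in the 5 gates; filled points had an adjusted p of at most 0.05. Ier3 lies nearest to 0 in each panel except that of the Car1 gate, where Egr1 does at −0.03, and Nr4a1 reaches −2.35 in the Mecom gate.

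In the genotype difference Ier3 was the member that followed the others least: it was called in no gate by the first fits, and its fitted value was above 0 in the Mecom, Mpo, Pf4 and Car1 gates (0.05, 0.16, 0.20 and 0.63). The Car1 value rests on 10 and 2 WT UMIs. In the Dntt gate Ier3 was at −0.30, lower in both libraries, and was called lower in 1 of 11 alternative settings. Egr1 followed the others in the Mecom, Dntt and Mpo gates and was near 0 in the Car1 gate. Differences between members were not tested. Whether a member's genotype difference varied between gates was tested jointly over 20 pools of cells in exactly 1 gate. None of the 9 members tested was called by edgeR, with adjusted p-values of 0.357 (Egr1) to 1.00 and 1 member, Egr1, at an unadjusted p under 0.05 (0.0134), against 0.769% of 12354 genes called. Without the filter on low counts Egr1 was called (adjusted p = 1.27e-17), while over the other alternatives its adjusted p ranged from 0.274 to 1.00. In the cells of no gate 6 of the 9 members tested were called lower (Nr4a1, Ier2, Zfp36, Btg2, Dusp1 and Klf2), against 4.89% of 13166 genes, and none higher, against 7.5%. Of the 9, 8 were lower in both libraries, against 39.4% of genes. No alternative setting was run for these counts. In the cells of no gate Egr1 stood at 63.2 and 77.6 CPM in the WT pools, with 36.1 and 25.6 CPM in the IkBKO pools, and Klf6 at 26.5 and 39.0 against 25.6 and 28.8 CPM, with overlap. Dendritic cell and monocyte markers summed to 805 and 422.1 CPM in the WT cells of no gate and 4413 and 4216 CPM in the IkBKO cells, and their part was not tested.

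In WT cells the members were not highest in the same gate. Among WT pools of cells in exactly 1 gate, 7 of the 9 members tested differed between the 5 gates, against 56.1% of 11674 genes. Egr1 (adjusted p = 0.185) and Btg2 (adjusted p = 0.104) were not called. Ier3 was highest in Mecom cells, at 47.8 and 55.5 CPM, then 26.9 and 34.9 CPM in Dntt, 17.6 and 28.1 in Pf4, 15.7 and 14.5 in Mpo and 9.12 and 15 in Car1 cells (adjusted p = 8.52e-09). Its Mecom and Dntt pools did not overlap, nor did Pf4 and Mpo, whereas Dntt overlapped with Pf4 and Mpo with Car1.

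Klf6 and Dusp1 were also highest in Mecom cells and did not overlap with the next gate. Klf6 was at 38.2 and 50.3 CPM there, 14.5 and 37.0 CPM in Pf4, 13.4 and 32.3 in Dntt, 8.54 and 27.4 in Mpo and 7.98 and 7.48 in Car1 cells (adjusted p = 5.29e-05). Dusp1 was at 30.3 and 33.0 CPM in Mecom cells, and the 4 other gates, at 8.98 to 22.4 CPM, overlapped in order (adjusted p = 6.97e-06). Btg2 and Klf2 were highest in Dntt cells. Btg2 was at 60.4 and 117.5 CPM there and at 40.6 and 54.1 CPM in Mecom cells, without overlap, with the other gates overlapping below. Klf2 was at 12.5 and 19.0 CPM in Dntt, 3.30 and 16.1 in Mpo, 8.52 and 9.98 in Mecom and 4.13 and 4.49 in Pf4 cells, with 0 UMIs in both Car1 pools (adjusted p = 5.93e-05).

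Zfp36 and Nr4a1 were about equally high in Dntt and Mecom cells. Zfp36 was at 50.2 and 81.4 CPM in Dntt and 56.0 and 68.1 CPM in Mecom cells, and at 13.7 and 0 CPM in Car1 cells (adjusted p = 2.72e-06). Nr4a1 was at 7.59 and 6.11 CPM against 7.70 and 5.74 CPM, and the other gates lay at 4.13 CPM or below (adjusted p = 0.0151). Ier2 overlapped between the neighbouring gates from Mecom (98.7 and 122.3 CPM) through Mpo and Dntt to Pf4 (66.1 and 92.0 CPM), with Car1 lowest at 63.8 and 29.9 CPM (adjusted p = 0.0359). Egr1 was at 77.4 and 78.5 CPM in Mecom, 49.3 and 87.1 in Dntt, 103.7 and 0 in Car1, 30.0 and 53.9 in Pf4 and 15.9 and 27.4 CPM in Mpo cells. Its Car1 values rest on 48 and 7 cells, and only Pf4 and Mpo, among neighbours in this order, did not overlap. Egr2 had at most 5 UMIs in any of these pools.

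**Figure D3:**
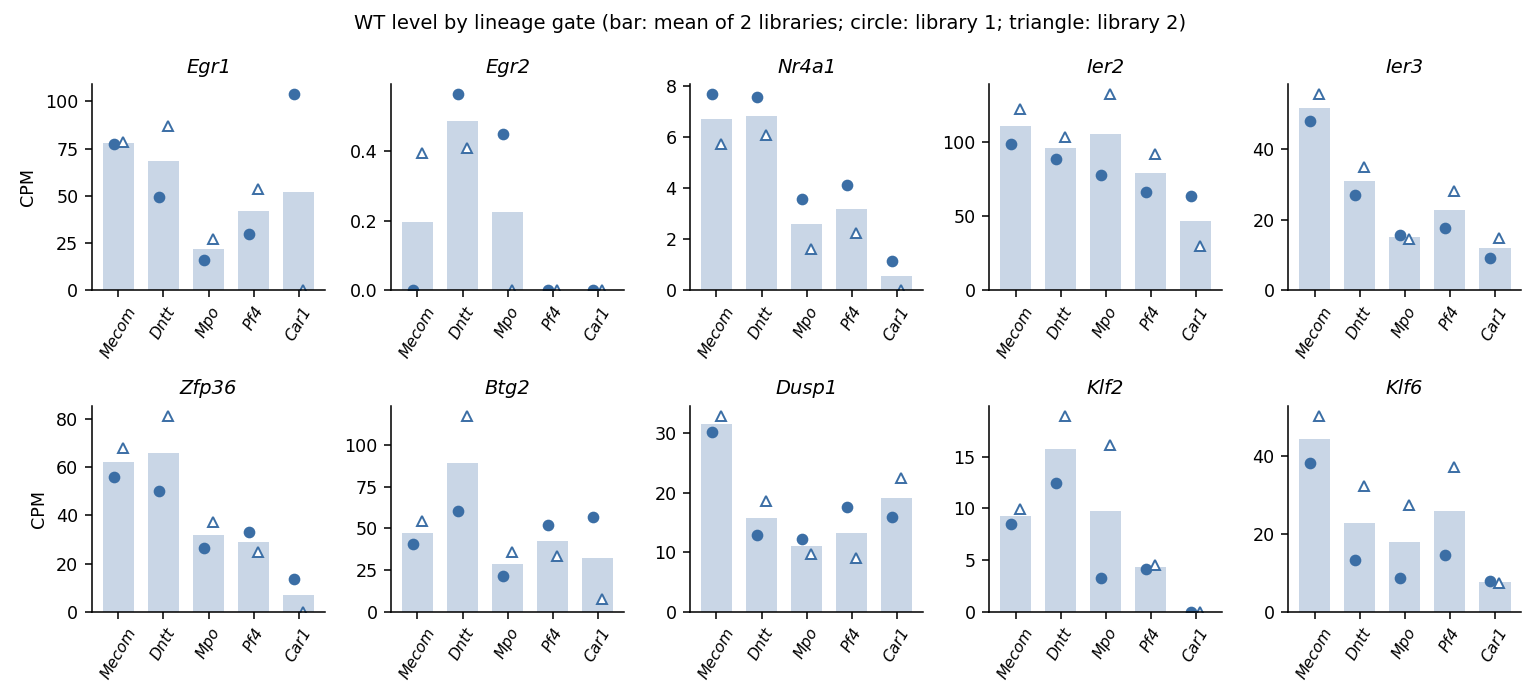
Level in WT cells (CPM) by lineage gate for each of the 10 genes, in cells of exactly 1 gate; bars are means of 2 libraries, circles library 1 and triangles library 2. Ier3, Klf6 and Dusp1 are highest in Mecom cells, and Btg2 and Klf2 in Dntt cells, while the Egr1 level in Car1 cells rests on 1 library.

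How the UMIs of the members lay over single cells was read after each cell was thinned to 5000 UMIs, which left out 188 and 956 WT and 102 and 503 IkBKO shallower cells. The sum over the 10 members had a median of 1 UMI in every pool. Its mean was 1.88 and 2.50 UMIs in WT and 1.10 and 1.28 in IkBKO cells. The 99th percentile was 10 and 15 UMIs in WT and 6 and 6 in IkBKO cells. At least 10 UMIs were seen in 38 of 3533 and 173 of 4007 WT cells (1.08% and 4.32%) and in 4 of 3860 and 4 of 4880 IkBKO cells (0.104% and 0.082%). The genotypes were apart at low counts too, with at least 1 UMI in 70.5% and 74.1% of WT and 60.3% and 64.5% of IkBKO cells, and at least 2 UMIs in 44.3% and 49.8% against 28.1% and 34.3%. The equal medians are thus a tie of whole numbers, and the upper tail was longer in WT replicate 2 than in WT replicate 1.

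Within WT cells the members were found together. In cells above the 90th percentile of the summed UMIs of the other 9 members, Egr1 was 5.68 and 12.4 times as high as in cells at or below the median. In IkBKO cells the ratio was 1.75 and 2.61. For Zfp36 the ratios were 4.0 and 7.04 in WT and 1.51 and 2.51 in IkBKO, and for Ier3 2.60 and 2.96 against 2.07 and 1.84. Nr4a1 was 3.06 and 14.4 times as high in WT and 3.44 and 3.60 times in IkBKO cells, so its genotypes were not ordered alike in the 2 libraries. The high cells held only 17 and 53 Nr4a1 UMIs in WT and 5 and 8 in IkBKO, so this order is uncertain. These ratios are descriptions, and the cutoffs differ between pools because the sums do.

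The same cells were then sorted by their summed UMIs of the AP-1 genes Fos, Fosb, Jun and Junb, called AP-1 UMIs below. Jund, at 84.6 to 322.3 CPM in the pools of all LSK cells, and the other subunits were not in this sum. Cells with none made up 35.2% and 35.4% of WT and 51.3% and 49.7% of IkBKO cells, and cells with 10 or more 3.00% and 7.29% against 0.130% and 0.184%. In cells with no AP-1 UMI the members summed to 203.4 and 211.3 CPM in WT against 171.2 and 204.9 CPM in IkBKO, 0.842 and 0.970 times the WT level. With 4 to 9 AP-1 UMIs they summed to 651.3 and 825.0 CPM in WT against 449.7 and 450.3 CPM in IkBKO, 0.690 and 0.546 times. The genotypes were thus closer in cells with no AP-1 UMI than in cells with 4 to 9, a difference that was not tested. The group with 4 to 9 held 18.2% and 19.965% of WT cells and 4.689% and 6.107% of IkBKO cells. Inside that group the genotypes were not matched for AP-1 UMIs, which may differ between them. The part of such a difference in the ratio was not tested. The members differed in how close the genotypes were. In cells with no AP-1 UMI the ratio was 0.964 and 0.984 for Ier2, 0.998 and 1.16 for Dusp1, 0.929 and 0.823 for Egr1 and 0.831 and 0.825 for Klf6. In replicate 1 the ratio was lower than these for Zfp36 (0.670 and 0.778), Btg2 (0.630 and 0.907), Klf2 (0.627 and 0.834) and Nr4a1 (0.487 and 0.898). In replicate 2 Egr1 was lower than Btg2, Klf2 and Nr4a1, so the order differed between libraries. With 4 to 9 AP-1 UMIs the ratio was 0.676 and 0.468 for Egr1, 0.669 and 0.479 for Ier2, 0.351 and 0.512 for Dusp1, 0.560 and 0.413 for Zfp36 and 0.284 and 0.321 for Klf2. In replicate 1 it was higher there than in cells with no AP-1 UMI for Btg2 (0.677), Klf6 (0.906) and Ier3 (1.24 against 0.910), whereas in replicate 2 it was lower for Btg2 (0.518), Klf6 (0.695) and Ier3 (1.10 against 1.23).

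**Figure D4:**
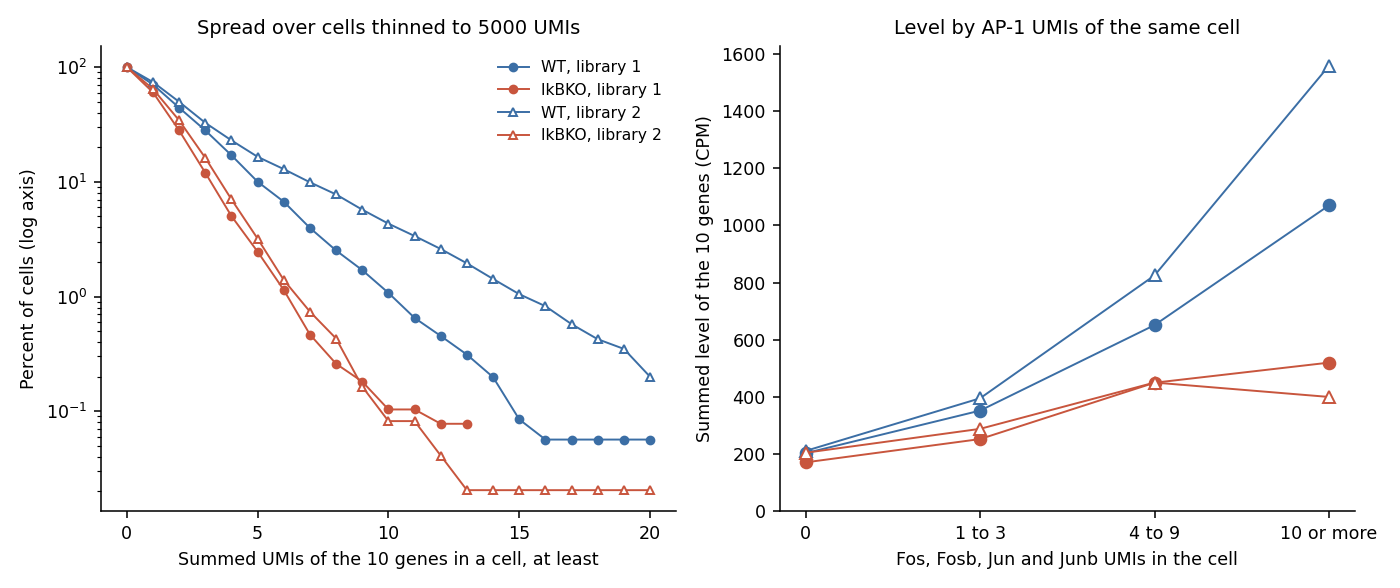
Left, percent of cells (log axis) with at least the given summed UMIs of the 10 genes, in cells thinned to 5000 UMIs; right, summed level of the 10 genes (CPM) in cells grouped by their UMIs of Fos, Fosb, Jun and Junb. WT is blue and IkBKO red, circles library 1 and triangles library 2. The pools lie between 171.2 and 211.3 CPM in cells without UMIs of these AP-1 genes. The curves part as the counts rise, with 9 or fewer IkBKO cells in the group with 10 or more such UMIs. Within a group the genotypes were not matched for these UMIs.

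Relatives of the members were read from a list of 28 paralogues, of which 27 could be tested. Of these 10 were called lower and 1 higher, with a median of −0.39. Over all genes tested 6.19% were called lower and 7.13% higher, with a median of −0.01. With no replicate block 0 of all genes were called, so no call in these lists stood without it. The ERK phosphatase gene Dusp6 fell, with 15.8 and 27.2 CPM in the WT pools against 6.81 and 12 CPM in the IkBKO pools (−1.11 ± 0.09, adjusted p = 0.00278). Dusp2, which like Dusp1 encodes a nuclear phosphatase, fell by 0.77 ± 0.09. Klf4, a Krüppel-like factor of monocytes and of stem cell reprogramming, rose, with 7.42 and 4.77 CPM in WT against 17.1 and 10.3 CPM in IkBKO (1.25 ± 0.11, adjusted p = 0.00412). This held over the mixed pool, in which dendritic cell and monocyte markers were also higher in IkBKO, a part that was not tested. In the Mecom gate Klf4 was at 4.08 and 4.12 CPM in WT against 3.26 and 2.18 CPM in IkBKO (−0.61 ± 0.27, adjusted p = 0.201), and in the Dntt gate at 3.39 and 4.36 CPM against 0.536 and 2.99 CPM (−0.94 ± 0.41, adjusted p = 0.132), lower in both libraries and not called. The lists were chosen with results of these data known.

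Of the 10 AP-1 subunits 7 were called lower and none higher, with a median of −0.91. Fos fell by 2.56 ± 0.08, Jun by 1.23 ± 0.09 and Jund by 1.09 ± 0.08. Of 18 genes of the serum response factor and ERK pathway 3 were called lower, the feedback inhibitors Spry1 (−0.83 ± 0.20), Spry2 (−0.79 ± 0.14) and Spred1 (−0.34 ± 0.08), and none higher. Srf itself was at 8.68 and 9.44 CPM in the WT pools, with 9.60 and 8.78 CPM in the IkBKO pools (0.11 ± 0.13, adjusted p = 0.594).

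A list of 22 other immediate-early and stress genes, 21 of them tested, was mixed in direction, with 2 called lower, 4 higher and a median of −0.05. Id1, an inhibitor of helix-loop-helix factors, rose, with 3.87 and 1.95 CPM in WT against 14.1 and 5.61 CPM in IkBKO (1.80 ± 0.16), and Gadd45b and Gadd45g, which encode stress sensors, rose by 0.76 ± 0.11 and 1.01 ± 0.15. Plk2, a polo-like kinase, fell by 2.47 ± 0.32. As markers of dissociation stress and RNA quality, 9 heat shock genes had a median of 0.22 with 1 called higher (Hspa8, 0.23 ± 0.06), and 13 mitochondrial coding genes had a median of −0.04 with none called. In the Mecom gate 3 of the 13 mitochondrial genes were called lower, mt-Co1 (−0.19), mt-Co2 (−0.13) and mt-Co3 (−0.15), against 4.37% of genes. In the Pf4 gate mt-Co1 was called lower (−0.23), and in the Dntt gate mt-Nd1 was called higher (0.32). The part of these stress and quality markers in the members' differences was not tested.

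**Figure D5:**
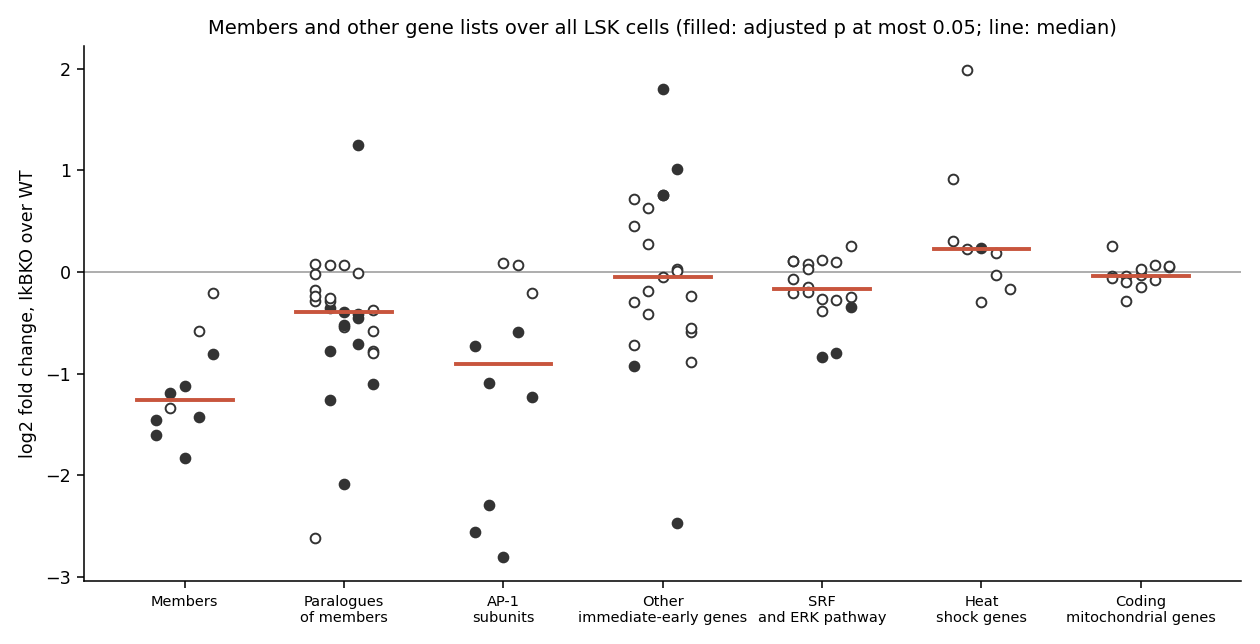
Log2 fold change of IkBKO over WT over all LSK cells for the 10 members and 6 gene lists; each point is a gene, filled where the adjusted p was at most 0.05, and lines are medians. The medians are −1.26 for the members, −0.91 for AP-1 subunits and −0.39 for paralogues, against −0.05 for other immediate-early genes.

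The genes most like the members were ranked by Pearson's r of log2(CPM + 1), centred within each library, with the mean of the 10 members over the 20 pools of cells in exactly 1 gate, which share libraries and differ in depth. Among 7978 genes the 8 highest were Mob1a (0.93), Fosb (0.92), Wbp1 (0.92), Jun (0.91), Fos (0.91), Rab5a (0.91), Ppp3ca (0.90) and Junb (0.90), and the median gene was at 0.21. Of the members, set against the mean of the other 9, Zfp36 (0.90), Nr4a1 (0.87) and Klf6 (0.84) were most alike. Ier2 was at 0.83, Btg2 at 0.80 and Klf2 at 0.74. Ier3 (0.59), Egr1 (0.53), Egr2 (0.48) and Dusp1 (0.38) were least alike.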

How the data were processed

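The deposited matrices hold raw UMI counts per gene and barcode, per the file headers written by Cell Ranger 6.0.0; the submitters' processing notes name Cell Ranger 7.0, Seurat 4.3.0 and mm10. Which version made the counts is not stated. Genotype and quality call were read from the deposited cell table, whose rules are not stated; no doublet caller was run. Per-sample value columns left unused numbered 0.

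UMIs were summed over passing cells of each genotype and library, and compared in edgeR 4.0.16 (R 4.3.3) by its quasi-likelihood test (robust, TMM, filterByExpr, library as a block, two-sided, Benjamini-Hochberg over all genes tested, call at 0.05), which left 1 residual degree of freedom; fold changes are TMM-scaled, so they differ from ratios of CPM. The quasi-likelihood test shares its estimate of spread over all genes, so a small p-value does not rest on a gene's own pools alone. Each SE was derived from that test, as the size of the log2 fold change divided by the square root of the F value. It therefore shares the same estimate of spread. The labels say that both genotypes of a replicate were multiplexed, and over 14742 genes the deviations of same-library pools correlated at 0.686. Alternatives included DESeq2 1.42.0, RLE scaling, no filter, other gates and left-out pools, and the scripts were tested on simulated data. Named genes are the members, Nfkbia, Nfkbib and Nfkbie, up to 3 genes a list with the smallest adjusted p, and the 8 most alike; Kit and Ly6a check the sort; Srf and Gadd45g were named after their values were seen. The members and lists were chosen with earlier results of these data known.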

Additional observations from a re-analysis of the deposited data

How the results depend on the processing

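Fewer members were called without the replicate block. With no replicate block edgeR called 0 members over all LSK cells, 3 in the Mecom gate, 4 in the Dntt gate and 0 in the Mpo, Pf4 and Car1 gates (8, 8, 8, 4, 5 and 2 at an unadjusted p under 0.05), and 4 for the WT level between gates. Leaving out 1 pool, which also drops the block and leaves a lone pool assumed to vary like the others, gave 0 to 3 members over all LSK cells, 3 to 5 in the Mecom, 0 to 5 in the Dntt, 0 to 3 in the Mpo, 0 to 0 in the Pf4 and 0 to 2 in the Car1 gate. DESeq2 with the block called 4 in the Dntt, 0 in the Pf4 and 0 in the Car1 gate (8, 3 and 0 at an unadjusted p under 0.05), where 6 of its adjusted p-values were NA. Cells in exactly 1 gate gave 0 in the Pf4 gate. No low-count filter gave 3 in the Mpo gate and 1 for the genotype difference between gates. Without cells of other lineages (Nkg7 not used, a rule chosen after seeing the data) 3 were called in the Mpo gate. For the Mpo and Car1 gates the share of all genes called under these alternatives is not given, so these counts have no background. Over all LSK cells RLE scaling, thinning to 5000 UMIs, DESeq2, no filter, both other-lineage rules and cells whose own tag was higher (also chosen after seeing the data) gave 7 or 8. With thinning Egr1 was no longer called (−1.32, adjusted p = 0.05002, just above the threshold) and Ier2 was (−0.57, adjusted p = 0.00636).

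Signs turned where values were near 0 or pools small. Leaving out 1 pool moved Ier3 over −0.50 to 0.07 in all LSK cells (0.0696 without IkBKO replicate 1, 0.0171 without WT replicate 2), −0.0090 to 0.12 in the Mecom gate, −0.042 to 0.58 in the Mpo gate and −0.28 to 0.59 in the Pf4 gate. It moved Nr4a1 in the Mpo gate over −1.64 to 0.0825, and in the Car1 gate Egr1 over −1.42 to 0.51 and Klf6 over −0.13 to 0.58. With gates on UMIs per 10000, Ier3 in the Pf4 gate was at −0.0388 and Egr1 in the Car1 gate at 0.035, and in cells of exactly 1 gate the latter was at 0.18. The cause was not tested. The few UMIs of Egr2, and the 9 WT cells of the Car1 gate in replicate 2, limit those values.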
